A study of Rattus norvegicus with 9 samples.

Results

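The renin-angiotensin system was described through 8 genes of its peptide chain: the precursor Agt, the peptidases Ace, Prcp, Anpep, Enpep and Nln, and the receptors Agtr1a and Mas1. Members were taken by name, as the probes whose RefSeq identifier maps to these rat symbols, out of 13903 genes with a symbol on the array. Each of the 8 had 1 probe, and 7 passed the signal filter, out of 10861 tested genes. Kidney RNA of 9 male rats was hybridised, 1 one-colour array per animal, with 3 Dahl salt-sensitive rats (Dahl S), 3 spontaneously hypertensive rats (SHR) and 3 Dahl salt-resistant rats (Dahl R). The rats of the 3 strains shared a birth day, were weaned at 30 days, ate a diet with 0.3% salt from then on and were 53 days old, and 1 μg of RNA per animal was amplified and labelled with Cy3. Dahl S rats become hypertensive on a salt load, Dahl R rats are the line selected alongside them for resistance to it, and SHR become hypertensive without one. No group was given salt beyond the low-salt diet. The labels do not say whether rats shared a litter or a preparation, so p-values measure the spread between these samples.

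Angiotensinogen, the product of Agt, is cut to angiotensin I, which angiotensin-converting enzyme (Ace) trims to angiotensin II. In the kidney, proximal tubule cells make angiotensinogen and carry a dense set of peptidases on their brush border. Angiotensin II acts on the type 1 receptor (Agtr1a) to constrict vessels and retain sodium, while angiotensin-(1-7), made from angiotensin I or II by other peptidases, acts on the receptor Mas1. The peptides are removed by clipping at either end, by the aminopeptidases of Enpep and Anpep at one end and by the carboxypeptidase of Prcp at the other.

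The sequence before the gene start was available from RefSeq (build GRCr8) for 7 of the 8 members. It is shown for Prcp, Anpep and Mas1, which had the largest differences from Dahl R in SHR among the members with a sequence. The windows cover the 250 bases before the annotated start, at chr1:156343644-156343893 (plus strand) for Prcp, chr1:143195102-143195351 (minus strand) for Anpep and chr1:50427840-50428089 (plus strand) for Mas1, and are written 5′ to 3′ along the gene. Capitals mark matches on either strand to 4 searched motifs. The first was TATAAA, the core of the TATA element. The second was CCAAT, bound by the factor NF-Y. The GC box was searched as GGGCGG. The last was GTTAAT, which is the core of the recognition sequence of the tubule factor HNF1. No match overlapped another.
Prcp: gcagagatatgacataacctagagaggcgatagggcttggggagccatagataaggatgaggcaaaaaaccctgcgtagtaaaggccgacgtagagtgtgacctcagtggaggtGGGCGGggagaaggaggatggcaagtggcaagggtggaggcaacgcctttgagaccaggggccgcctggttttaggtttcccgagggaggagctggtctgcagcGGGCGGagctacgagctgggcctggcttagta
Anpep: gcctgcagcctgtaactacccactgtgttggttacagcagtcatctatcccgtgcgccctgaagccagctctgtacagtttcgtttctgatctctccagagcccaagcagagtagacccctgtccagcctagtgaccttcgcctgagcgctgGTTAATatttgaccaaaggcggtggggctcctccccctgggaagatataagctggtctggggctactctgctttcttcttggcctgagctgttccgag
Mas1: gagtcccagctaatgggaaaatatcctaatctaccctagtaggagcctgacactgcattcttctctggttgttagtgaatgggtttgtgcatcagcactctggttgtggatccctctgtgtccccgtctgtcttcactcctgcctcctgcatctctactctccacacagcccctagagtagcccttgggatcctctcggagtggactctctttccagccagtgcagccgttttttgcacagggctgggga
The Prcp window held GGGCGG 2 times, a motif found in 30.5% of 33469 promoters of this length. The Anpep window held GTTAAT 1 time, found in 6.45% of them, and the Mas1 window held none of the 4. TATAAA stood in 12.9% and CCAAT in 34.0% of all promoters. GC content was 58.4% for Prcp, 55.6% for Anpep and 53.2% for Mas1, against a median of 51.2%. These matches describe the letters only.

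SHR replicate 3 stood apart from the other arrays. On it 43.1% of probes were well above background, against 60.1% to 70.3% on the other 8 arrays, and 7.93% of spots were marked as outliers, against 1.49% to 2.62%. The lowest log2 level of a probe well above background was -2.99 there, against -7.51 to -5.92 on the other 8 arrays. Scan times in the file headers put the 3 Dahl S arrays with Dahl R replicate 1, and SHR replicates 1 and 2 with Dahl R replicates 2 and 3, while SHR replicate 3 was scanned alone. Dahl S and SHR therefore never shared a scan. A fit with scan as a block links them only through the Dahl R arrays, of which replicate 1 alone was in the Dahl S scan. Of the 15 proximal tubule markers on the array, 9 were usable on all arrays, and none of the 15 was absent. The linear levels of the 9 were summed, so bright probes weigh most. The log2 of that sum was 8.91 to 9.08 in Dahl S, 8.92 to 9.22 in SHR and 9.06 to 9.32 in Dahl R. Levels below are the log2 signal minus the log2 of the array's 75th percentile, and a level compares arrays for 1 probe, never one gene with another. In whole kidney, fewer cells of a type and less RNA per cell cannot be told apart.

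More members passed in the comparisons with SHR than between the Dahl strains, as did more probes of the whole array. In Dahl S against Dahl R, 1 of the 7 tested members (Prcp) was lower, 0 were higher and 6 did not pass at an adjusted p under 0.05 (limma, Benjamini-Hochberg over 16592 probes), where 1.40% of all probes passed (0.705% higher and 0.699% lower). In SHR against Dahl R, Mas1 and Anpep were higher, Prcp, Agt and Nln were lower, and 2 did not pass, so 5 of 7 were past the threshold beside 13.0% of all probes (7.56% higher and 5.49% lower). In Dahl S against SHR, 3 were higher (Agt, Prcp and Nln), 1 was lower (Mas1) and 3 did not pass, beside 15.7% of all probes (7.08% higher and 8.62% lower). Arrays of the strains did not overlap for 3 of the 7 in Dahl S against Dahl R (31.1% of all probes), 6 in SHR against Dahl R (38.7%) and 5 in Dahl S against SHR (37.9%). Enpep was among them each time, with 2 usable SHR arrays. With its marked spot of SHR replicate 3 kept (5.12), SHR and Dahl R (4.89 to 5.17) overlapped for Enpep. Without SHR replicate 3 the counts were 1 higher and 1 lower for Dahl S against Dahl R, 2 and 3 for SHR against Dahl R, and 3 and 1 for Dahl S against SHR. The median difference of the 7 tested members was 0.01, -0.17 and -0.20 for these comparisons in the order given, and that of all probes 0.02, 0.11 and -0.09. The 3 comparisons share arrays. The members were chosen with earlier results of these data known, so their counts beside the shares of all probes are a description only.

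Agt, the only precursor of the angiotensin peptides, was lower in SHR than in either Dahl strain. Its log2 level was 2.27, 2.31 and 2.12 on the Dahl S arrays, 1.02, 1.04 and 0.42 on the SHR arrays, and 2.14, 2.31 and 2.22 on the Dahl R arrays. The SHR values lay below all 6 Dahl values, with SHR replicate 3 the lowest, and those of Dahl S and Dahl R overlapped. The level was 2.63-fold lower in SHR than in Dahl R (log2 difference -1.40 ± 0.17, SE, n = 3 and 3, limma adjusted p = 0.00217) and 2.64-fold higher in Dahl S than in SHR (1.40 ± 0.17, adjusted p = 0.00185). Dahl S differed from Dahl R by 0.01 ± 0.17, with a 95% interval of -0.40 to 0.41. Within the scan that held SHR replicates 1 and 2 with Dahl R replicates 2 and 3, the limma difference was -1.23 (adjusted p = 0.00953). With scan as a block, a fit that rests on Dahl R replicate 1 to link the strains, Dahl S exceeded SHR by 1.32 (limma adjusted p = 0.00861). Without SHR replicate 3 the differences were -1.19 for SHR against Dahl R and 1.20 for Dahl S against SHR (limma adjusted p = 0.000225 and 0.000194).

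Prcp encodes prolylcarboxypeptidase, a lysosomal and cell-surface enzyme that removes the last residue of angiotensin II and of other peptides with a proline before it. It had a different level in each strain: 0.07, -0.35 and -0.16 on the Dahl S arrays, -0.85, -1.02 and -2.01 on the SHR arrays, and 1.99, 1.72 and 1.78 on the Dahl R arrays. No 2 strains overlapped, with Dahl R highest and SHR lowest, and SHR replicate 3 lay about 1 log2 unit below the other SHR arrays. SHR had an 8.72-fold lower level than Dahl R (-3.12 ± 0.29, SE, n = 3 and 3, limma adjusted p = 0.000559), the largest difference of a member that passed. It was -2.69 within the shared scan (adjusted p = 0.00392) and -2.77 without SHR replicate 3 (adjusted p = 5.36e-05), both by limma.

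The Dahl S level of Prcp, 3.94-fold under that of Dahl R, depended more on the arrays used for its call. Leaving out any 1 of the 6 Dahl arrays kept the difference at -2.09 to -1.87 and moved the limma adjusted p to 0.0602 to 0.103, while without SHR replicate 3 it was 0.000496. Against the 1 Dahl R array of the same scan the difference was -2.14, a value given without a test. With scan as a block the value is the same by construction. All Dahl S arrays were in that scan, so the block fit rests on the same 1 Dahl R array. Dahl S lay 2.21-fold above SHR (1.15 ± 0.29, limma adjusted p = 0.0348). That call was lost on leaving out any of the 6 Dahl arrays or SHR replicate 2 (1.04 to 1.28, adjusted p = 0.0504 to 0.104). With scan as a block the limma difference was 0.54 (adjusted p = 0.279), and without SHR replicate 3 it was 0.79 (adjusted p = 0.0089).

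Anpep encodes aminopeptidase N, a brush border enzyme that removes arginine from angiotensin III. On the log2 scale it read 6.41, 6.26 and 6.07 on the Dahl S arrays, 6.31 and 6.58 on SHR replicates 1 and 2, and 5.47, 5.51 and 5.56 on the Dahl R arrays. The spot of SHR replicate 3 was marked as an outlier and is missing from the fit; with marked spots kept it read 6.48. All Dahl S and SHR values lay above all Dahl R values and overlapped each other. SHR exceeded Dahl R 1.90-fold (0.93 ± 0.14, SE, n = 2 and 3, limma adjusted p = 0.00775), and by 0.90 within the shared scan (adjusted p = 0.0313). The SHR call was lost under normexp background correction (0.93, limma adjusted p = 0.0997) and with the percentile taken over unmarked spots (0.94, adjusted p = 0.0540). In Dahl S the level was 1.66 times that of Dahl R, with a 95% interval of 0.43 to 1.03 on the log2 scale, and did not pass; without SHR replicate 3 the limma adjusted p was 0.0163. Dahl S and SHR differed by -0.20 ± 0.14 (interval -0.53 to 0.14, adjusted p = 0.373).

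Enpep encodes aminopeptidase A, which converts angiotensin II to angiotensin III. It had a log2 level of -2.97, 4.68 and 4.69 on the Dahl S arrays, 4.82 and 4.87 on SHR replicates 1 and 2, and 5.17, 4.97 and 4.89 on the Dahl R arrays, and the marked spot of SHR replicate 3 read 5.12. One spot, that of Dahl S replicate 1, was far below the others: its median signal was 353.5, against 58425 to 103238 on the other 8 arrays. That spot carried no outlier mark, and the 45 spots around it had a median of -0.24 relative to their strain. The Enpep values of Dahl S lay below those of SHR, and the usable SHR values below those of Dahl R. Of the tested probes, 113 lay more than 5 log2 units below both other arrays of the strain on Dahl S replicate 1, against 1 on SHR replicate 3 and 0 on each of the other 7 arrays. With that array, Dahl S differed from Dahl R by -2.88 ± 1.97 (limma adjusted p = 0.742). Without it, the differences were -0.32 ± 0.12 for Dahl S against Dahl R (limma adjusted p = 0.511), -0.17 ± 0.12 for SHR against Dahl R (0.414) and -0.15 ± 0.13 for Dahl S against SHR (0.493).

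Nln encodes neurolysin, a metallopeptidase that cuts neurotensin, bradykinin and angiotensin I. Its log2 level was -2.40, -2.51 and -2.71 in Dahl S, -3.04, -2.93 and -2.90 in SHR and -2.49, -2.53 and -2.65 in Dahl R. The SHR values lay below those of both Dahl strains, which overlapped, and the probe was not well above background on SHR replicate 3. It was 1.32-fold lower in SHR than in Dahl R (-0.40 ± 0.11, SE, n = 3 and 3, limma adjusted p = 0.0469) and 1.34-fold higher in Dahl S than in SHR (0.42 ± 0.11, adjusted p = 0.0360). Both calls were near the threshold: the first was lost on leaving out any of 7 arrays (all but Dahl S replicate 1 and SHR replicate 3, adjusted p = 0.0505 to 0.160), the second on any of 7 (all but Dahl S replicate 3 and SHR replicate 3, 0.0610 to 0.122). Under normexp the limma difference of SHR from Dahl R was -0.0016 (adjusted p = 0.998). Within the shared scan it was -0.40 (adjusted p = 0.0801), and with scan as a block Dahl S exceeded SHR by 0.34 (adjusted p = 0.405).

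Ace encodes the enzyme that forms angiotensin II and breaks down bradykinin. Its probe was well above background on SHR replicate 2 and Dahl R replicate 1 alone and was not tested. The log2 readings were -5.71, -6.89 and -6.85 in Dahl S, -7.28, -6.42 and -4.77 in SHR, and -6.29, -6.87 and -7.99 in Dahl R. The strains overlapped, and these readings give no order.

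Of the receptors, Agtr1a, the main type 1 angiotensin receptor of the rat kidney, did not pass in any comparison. The receptor's log2 level was 3.73, 3.33 and 3.46 in Dahl S, 3.41, 3.65 and 4.12 in SHR and 3.63, 3.49 and 3.34 in Dahl R. The 3 strains overlapped, and SHR replicate 3 gave the highest value. The differences were 0.02 ± 0.20 for Dahl S against Dahl R (95% interval -0.43 to 0.47), 0.24 ± 0.20 for SHR against Dahl R (-0.21 to 0.70) and -0.22 ± 0.20 for Dahl S against SHR (-0.68 to 0.23). Differences inside these intervals could not be told from none with 3 arrays a strain.

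Mas1, the receptor of angiotensin-(1-7), was higher in SHR. Its log2 level was -3.81, -3.72 and -3.90 in Dahl S, -3.26, -2.79 and -2.11 in SHR and -3.80, -3.78 and -3.68 in Dahl R. All 3 SHR values lay above all 6 Dahl values, which overlapped, and SHR replicate 3 was the highest. SHR exceeded Dahl R 2.05-fold (1.03 ± 0.26, SE, n = 3 and 3, limma adjusted p = 0.0379), and Dahl S was 2.13-fold lower than SHR (-1.09 ± 0.26, adjusted p = 0.0264). The first call was lost on leaving out any of 7 arrays (all but SHR replicates 1 and 3, adjusted p = 0.0594 to 0.122), and the second on leaving out any of 6 (0.0508 to 0.0871). The second was kept without Dahl R replicate 1, SHR replicate 1 or SHR replicate 3. Without SHR replicate 3 the limma differences were 0.73 (adjusted p = 0.0117) and -0.79 (0.00767). Within the shared scan SHR exceeded Dahl R by 0.70 (limma adjusted p = 0.0970), and with scan as a block Dahl S differed from SHR by -0.71 (adjusted p = 0.195). Under normexp Dahl S differed from SHR by -0.26 (limma adjusted p = 0.787).

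**Figure D1:**
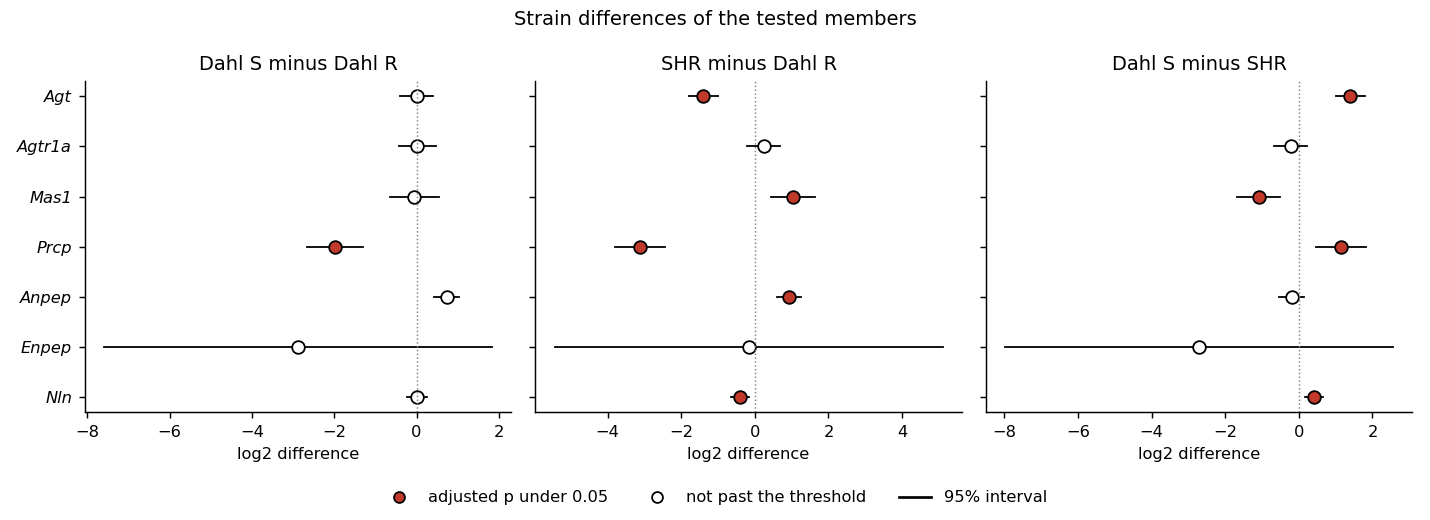
Log2 difference (horizontal axis) of the 7 tested members in Dahl S minus Dahl R, SHR minus Dahl R and Dahl S minus SHR, with 95% intervals as lines and red points where the adjusted p was under 0.05. Agt and Prcp have the intervals farthest from 0 for SHR minus Dahl R, and the Enpep intervals, which include the low spot of 1 Dahl S array, are the widest.

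Over 21 other settings of SHR against Dahl R (another processing, a scan restriction or an array left out), Agt passed in 21 with differences of -1.503 to -1.044, Prcp in 21 (-3.35 to -2.69), Anpep in 19 (0.79 to 1.06), Mas1 in 8 (0.70 to 1.38) and Nln in 5. For Dahl S against Dahl R, Prcp passed in 12 of 21 and Anpep in 7 of 21. For Dahl S against SHR, Agt passed in 20 of 20, Mas1 in 9, Prcp in 8 and Nln in 7.

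**Figure D2:**
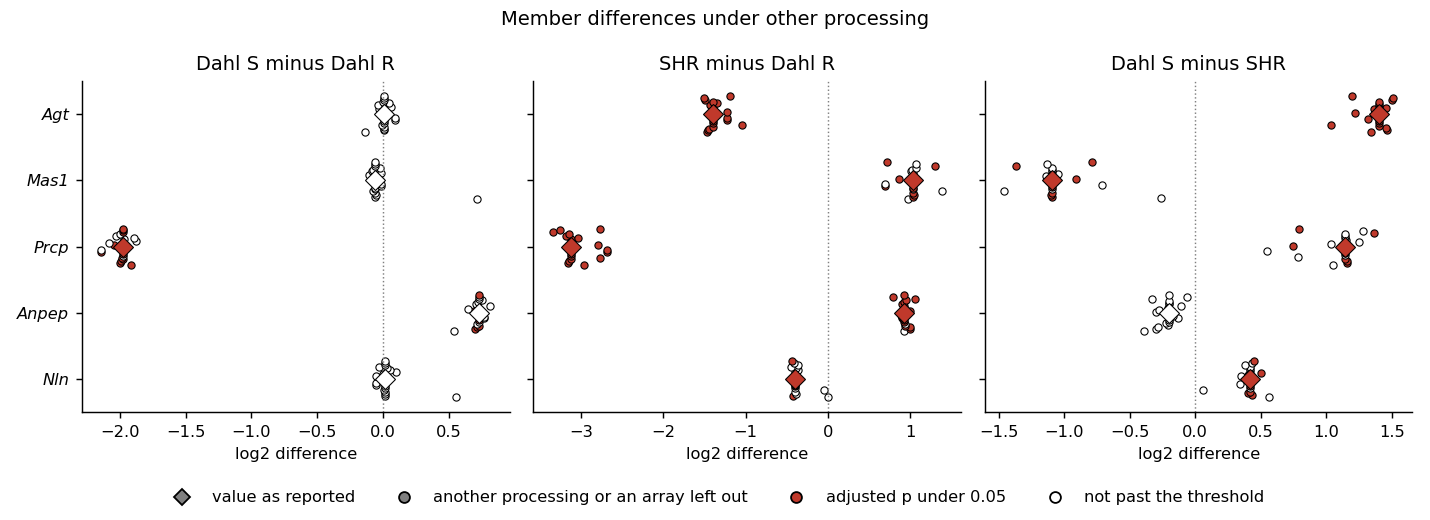
Log2 difference (horizontal axis) of Agt, Mas1, Prcp, Anpep and Nln as reported (diamonds) and under each other processing or left-out array (circles), in red where the adjusted p was under 0.05, for the 3 comparisons. Agt and Prcp are red throughout for SHR minus Dahl R, and Nln and Mas1 are red under some alternatives only.

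The other angiotensin genes were taken from a list of 25, of which 23 were on the array. Without the 8 members, 15 were on it and 12 were tested. None of the 12 passed for Dahl S against Dahl R by limma (2 had an unadjusted p under 0.05), 1 was higher and 1 lower for SHR against Dahl R, and 1 was higher and 1 lower for Dahl S against SHR. Their median differences were -0.05, 0.04 and -0.09. Of all probes, 1.40%, 13.0% and 15.7% passed in these comparisons, in the order given.

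Agtrap encodes a protein that binds the type 1 receptor and promotes its internalisation. Its log2 level was 2.15, 2.06 and 2.11 in Dahl S, 1.38, 0.78 and 0.73 in SHR and 2.17, 2.24 and 1.98 in Dahl R. All SHR values lay below all Dahl values, and the Dahl strains overlapped. It was 2.24-fold lower in SHR than in Dahl R (-1.16 ± 0.18, SE, n = 3 and 3, limma adjusted p = 0.00542) and 2.21-fold higher in Dahl S than in SHR (1.14 ± 0.18, adjusted p = 0.00523). The first call was lost within the shared scan (-1.03, limma adjusted p = 0.0815) and with the percentile over unmarked spots (-0.81, 0.149), and the second under normexp (0.0671), with the percentile over unmarked spots (0.138) and with scan as a block (0.97, 0.164).

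Cma1 encodes chymase, a mast cell protease listed here with the angiotensin genes, and its action on angiotensin peptides was not measured. On the log2 scale chymase read -3.13, -3.92 and -4.31 in Dahl S, -1.88, -1.40 and -1.16 in SHR and -2.45, -3.09 and -2.75 in Dahl R. No 2 strains overlapped, with SHR highest and Dahl S lowest. Dahl S was 4.95-fold lower than SHR (-2.31 ± 0.33, limma adjusted p = 0.00359), and SHR 2.43-fold higher than Dahl R (1.28 ± 0.33, adjusted p = 0.0421, and 1.12 with 0.0663 without SHR replicate 3). The second call was also lost without Dahl S replicate 2, any Dahl R array or SHR replicate 2. Dahl S against SHR did not pass with scan as a block (-2.62, limma adjusted p = 0.0744) or under normexp (-1.09, 0.256). The linear levels of 5 mast cell markers, Cma1 among them, were summed, so bright probes weigh most. The log2 of that sum was -1.35 to -0.81 in Dahl S, -0.50 to 0.10 in SHR and -1.01 to -0.73 in Dahl R. The part of these markers in the result was not tested.

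Agtr1b, the second rat type 1 receptor, differed by -0.16 for Dahl S against Dahl R, -0.04 for SHR against Dahl R and -0.12 for Dahl S against SHR (limma adjusted p of at least 0.642). Mme, the gene of neprilysin, differed by -0.34, 0.03 and -0.37 in these comparisons (0.332, 0.885 and 0.0974). Lnpep, the angiotensin IV receptor, differed by 0.44, 0.73 and -0.30, and Thop1, a peptidase close to neurolysin, by 0.12, -0.16 and 0.27, and none of the differences of these 4 genes passed. Agtr2, the type 2 receptor, was well above background on 0 arrays, and Atp6ap2 was not analysed here.

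**Figure D3:**
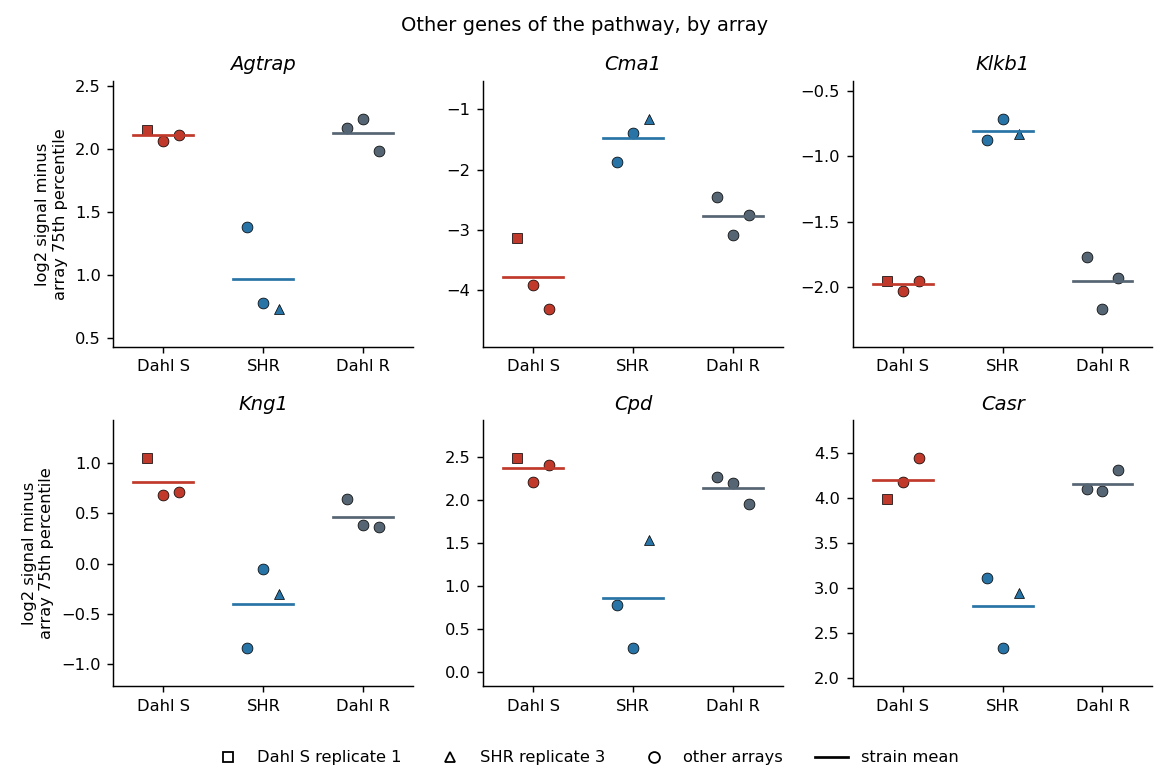
Log2 level above the 75th percentile of the array (vertical axis, a separate scale per gene) of Agtrap, Cma1, Klkb1, Kng1, Cpd and Casr on each array of Dahl S, SHR and Dahl R, with strain means as lines. The 3 SHR arrays do not overlap those of either Dahl strain for any of these 6 genes.

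The kallikrein-kinin genes are the neighbouring peptide system, whose kinins Ace degrades. All 13 of the list were on the array and 10 were tested. None passed for Dahl S against Dahl R by limma (2 had an unadjusted p under 0.05), where 1.40% of all probes passed. For SHR against Dahl R, 1 was higher and 3 lower, beside 13.0% of all probes. For Dahl S against SHR, 3 were higher and 2 lower, beside 15.7% of all probes. The medians were 0.04, -0.18 and 0.13.

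Klkb1, the gene of plasma prekallikrein, read -1.96, -2.04 and -1.96 in Dahl S, -0.88, -0.71 and -0.83 in SHR and -1.77, -2.17 and -1.93 in Dahl R. The SHR values lay above all Dahl values. SHR exceeded Dahl R 2.22-fold (1.15 ± 0.12, limma adjusted p = 0.000854), and Dahl S was 2.26-fold lower than SHR (-1.17 ± 0.12, adjusted p = 0.000681, lost under normexp at 0.0816). The kininogen Kng1, the kinin precursor, was 1.82-fold lower in SHR than in Dahl R (-0.86 ± 0.21, adjusted p = 0.0360, lost without Dahl S replicate 2 or 3, SHR replicate 1 or any Dahl R array, at 0.0510 to 0.129) and 2.31-fold higher in Dahl S than in SHR (1.21 ± 0.21, adjusted p = 0.00868). Kng2, a close copy whose probe may share signal with Kng1, was also higher in Dahl S than in SHR (1.24 ± 0.23, limma adjusted p = 0.0104).

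The carboxypeptidase Cpd was 2.42-fold lower in SHR than in Dahl R (-1.28 ± 0.29, limma adjusted p = 0.0270, lost without Dahl S replicate 3, SHR replicate 1 or any Dahl R array, at 0.0506 to 0.0993) and 2.84-fold higher in Dahl S than in SHR (1.504 ± 0.288, adjusted p = 0.0124). The endothelin-converting enzyme Ece1 was lower in SHR than in Dahl R (-0.59 ± 0.12, limma adjusted p = 0.0213, lost without SHR replicate 2 or any Dahl R array, at 0.0559 to 0.0790). The tissue kallikrein Klk1 was 1.79-fold lower in Dahl S than in SHR (-0.84 ± 0.13, 2 usable SHR arrays, limma adjusted p = 0.00855). Klk1 belongs to a rat family of near-identical copies, so its probe may share signal with them. Over 20 other settings of Dahl S against SHR, Kng1 passed in 18, Kng2 and Cpd in 17, and Klk1 in 16. No scan held both strains. With scan as a block, 3 genes of all the lists passed for this comparison, Agt and Klkb1 among them, where 17 passed as reported. Over 21 other settings of SHR against Dahl R, Cpd and Ece1 passed in 11 and Kng1 in 8. Ece1 ranged from -0.67 to -0.24.

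**Figure D4:**
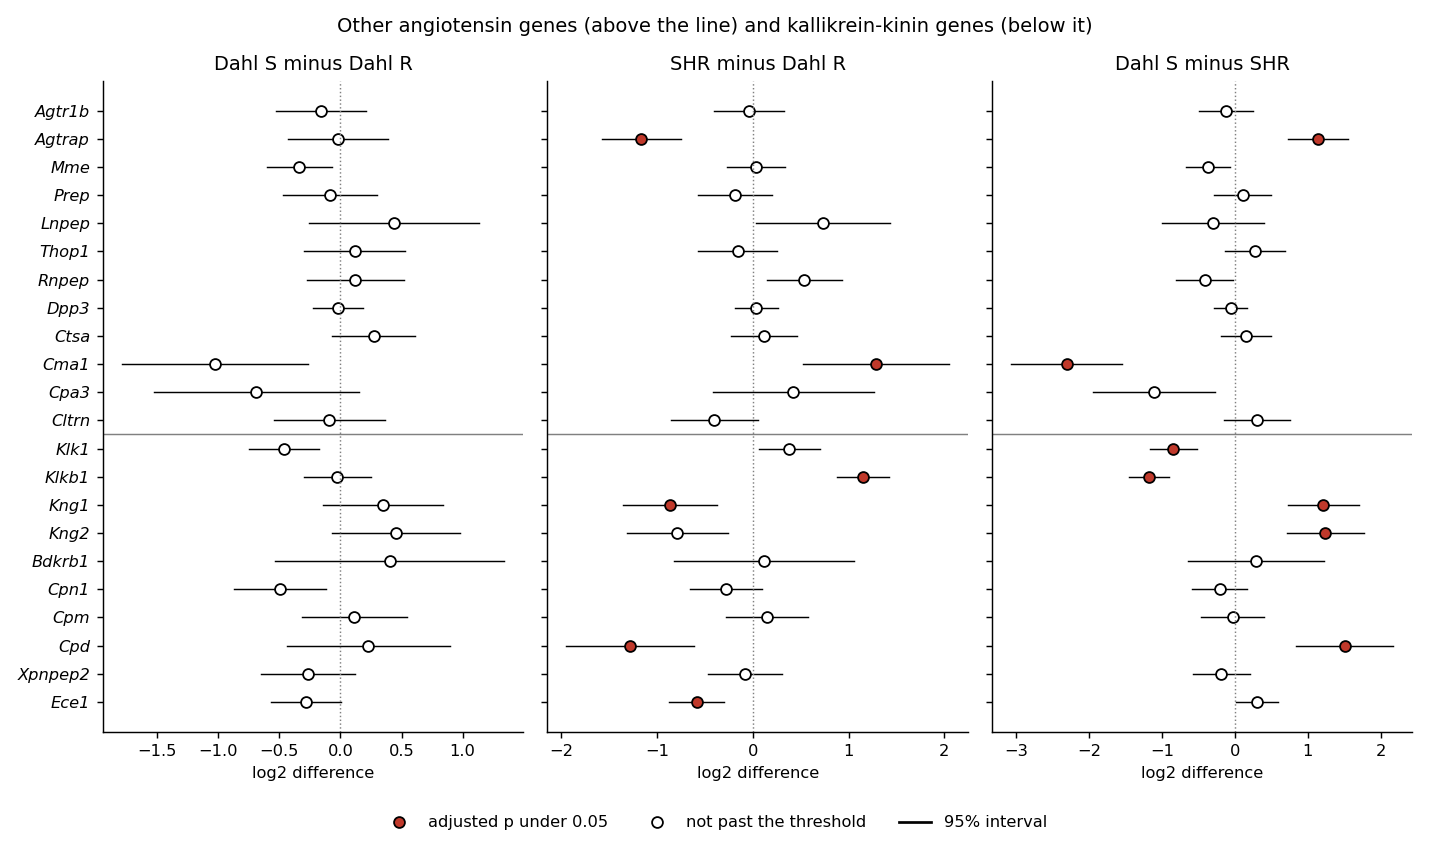
Log2 difference (horizontal axis) with 95% intervals of 12 other angiotensin genes (above the line) and 10 kallikrein-kinin genes (below it) in Dahl S minus Dahl R, SHR minus Dahl R and Dahl S minus SHR, in red where the adjusted p was under 0.05. No point is red for Dahl S minus Dahl R, and Agtrap, Cma1, Klkb1, Kng1 and Cpd are red in both comparisons with SHR.

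Of 11 tested other kidney peptidases, 0 passed for Dahl S against Dahl R by limma (2 at an unadjusted p under 0.05) and 0 for SHR against Dahl R (3 at an unadjusted p under 0.05). Of all probes, 1.40% passed for Dahl S against Dahl R, 13.0% for SHR against Dahl R and 15.7% for Dahl S against SHR. For Dahl S against SHR the lysosomal proteases Ctsl (0.73 ± 0.15, limma adjusted p = 0.0205) and Tpp1 (0.65 ± 0.12, 0.0131) were higher, and the brush border peptidase Dpp4 was lower (-0.59 ± 0.15, 0.0465), each on 2 usable SHR arrays. The limma call was lost for Ctsl without Dahl S replicate 2 or 3 or SHR replicate 2 (adjusted p = 0.0629 to 0.0871), for Tpp1 without SHR replicate 2 (0.0614), and for Dpp4 without any array but Dahl S replicate 1 or SHR replicate 3 (0.0502 to 0.167). Of 12 receptor signalling genes, 0 passed for Dahl S against Dahl R by limma (0 also at an unadjusted p under 0.05). Arrb2, the arrestin that uncouples the type 1 receptor, was higher in SHR than in Dahl R (0.39 ± 0.09, limma adjusted p = 0.0307). Cyba, a subunit of NADPH oxidase, was lower in SHR than in Dahl R (-0.45 ± 0.10, adjusted p = 0.0299) and higher in Dahl S than in SHR (0.56 ± 0.10, 0.0110). The SHR against Dahl R call was lost for Arrb2 without Dahl S replicate 2 or 3, SHR replicate 2 or any Dahl R array (limma adjusted p = 0.0573 to 0.117). For Cyba it was lost without any of these or SHR replicate 1 (limma adjusted p = 0.0555 to 0.108). Over 21 other settings of SHR against Dahl R, Arrb2 passed in 9 and Cyba in 8, with Cyba at -0.58 to -0.09. Over 20 other settings of Dahl S against SHR, Cyba passed in 16, Tpp1 in 15, Ctsl in 11 and Dpp4 in 7.

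A list made for renin cells and the macula densa had 9 tested genes, read here in whole kidney. For Dahl S against Dahl R, 1 of the 9 passed by limma, beside 1.40% of all probes. It was Akr1b7, an aldo-keto reductase, which was higher in Dahl S, at -1.49, 0.61 and -2.75, against -7.95, -7.57 and -7.28 in Dahl R, where it was not well above background. That is at least 59.3-fold on all arrays, at least 31.5-fold without Dahl S replicate 2 and at least 101-fold without Dahl S replicate 3. The limma adjusted p was 0.0483, and the call was lost without any array but SHR replicate 1 or 3 (0.0625 to 0.202). It was also lost under normexp, where the fitted log2 difference of Akr1b7 was 3.79 in place of 6.39. Over 20 other settings of Dahl S against Dahl R, Akr1b7 passed in 5. In SHR it read -8.27, -4.28 and -4.66, with 1 of 3 arrays well above background, so no size is given for Dahl S over SHR, which passed as higher (limma adjusted p = 0.0375, lost without Dahl S replicate 1 or 2 or any Dahl R array, at 0.0652 to 0.119). Over 19 other settings of Dahl S against SHR, Akr1b7 passed in 9. Casr, the calcium-sensing receptor, was 3.99, 4.18 and 4.44 in Dahl S, 3.11, 2.33 and 2.94 in SHR and 4.09, 4.07 and 4.31 in Dahl R. The SHR values lay below all others. It was 2.57-fold lower in SHR than in Dahl R (-1.36 ± 0.21, limma adjusted p = 0.00640) and 2.65-fold higher in Dahl S than in SHR (1.41 ± 0.21, adjusted p = 0.00497). Within the shared scan SHR differed from Dahl R by -1.47 (limma adjusted p = 0.0620), and with scan as a block Dahl S exceeded SHR by 1.58 (0.113). With the percentile over unmarked spots neither passed (-1.01 and 1.04, adjusted p = 0.222 and 0.178).

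Markers of other cells were read beside the members, and the part of cell makeup in the member results was not tested. The shares of all probes that passed were 1.40% for Dahl S against Dahl R, 13.0% for SHR against Dahl R and 15.7% for Dahl S against SHR. Of 6 endothelial markers, 1 (Emcn, 0.62) was higher in SHR than in Dahl R and 5 did not pass by limma, Ehd3 among them at -0.84, and 2 (Emcn and Tek) were lower in Dahl S than in SHR. The log2 of their summed linear level, in which bright probes weigh most, was 4.997 to 5.137 in Dahl S, 5.416 to 5.869 in SHR and 5.001 to 5.080 in Dahl R. Of 6 collecting duct markers, Aqp2, Scnn1b and Atp6v1b1 were higher in SHR than in Dahl R (0.64, 1.49 and 0.78) and 3 did not pass, Aqp3 among them at 0.06. Aqp2 and Scnn1b were lower in Dahl S than in SHR, and Slc4a1 was higher in Dahl S than in Dahl R (0.78). For the 4 collecting duct markers usable on all arrays, the log2 of the summed linear level was 6.18 to 6.55 in Dahl S, 6.81 to 7.08 in SHR and 6.13 to 6.56 in Dahl R. Of the 15 proximal tubule markers, 0 passed for Dahl S against Dahl R by limma (5 at an unadjusted p under 0.05), 0 were higher and 3 lower for SHR against Dahl R, and 3 were higher and 1 lower for Dahl S against SHR. Of 4 adrenal cortex markers 3 were tested and Cyp11b2 was well above background on 0 arrays. By limma 0 of the 3 passed in any comparison (at an unadjusted p under 0.05, 0 for Dahl S against Dahl R, 1 for SHR against Dahl R and 0 for Dahl S against SHR), with median differences of -0.16, 1.08 and -1.29 in that order. Of 5 hepatocyte markers 4 were tested and Tat was well above background on 0 arrays. By limma 0 of the 4 passed (0, 0 and 1 at an unadjusted p under 0.05), with medians of -0.46, -0.18 and -0.10. Of 3 tested blood markers, 0 passed by limma against Dahl R (2 in Dahl S and 1 in SHR at an unadjusted p under 0.05). For Dahl S against SHR 1 was higher, and the medians were 0.98, -0.23 and 1.21. Of 5 tested fat markers, 2 were higher in SHR than in Dahl R and 2 lower in Dahl S than in SHR. Of 6 leukocyte markers, 1 was higher in SHR than in Dahl R and 2 in Dahl S than in SHR.

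Among genes outside the lists, those most like each passing member were ranked by Pearson r of log2 level over the arrays, given as a description without a test. Prcp was followed most closely by Ebpl (r = 0.984), Homer2 (0.983) and Ppp2r5e (0.970) over 9 arrays. Agt was followed by Glrx5 (0.993), C20h21orf58 (0.992) and RT1-Db1 (0.992), and Mas1 by Grk4 (0.990), Rnf39 (0.988) and Phkg2 (0.987). Nln was followed by Hist1h2bd (0.981), Clec9a (0.975) and Sytl3 (0.967), and Anpep over 8 arrays by Samd13 (0.989), Calcr (0.974) and Ampd1 (0.973). The points share 3 strains of 3 arrays, so any gene with the same strain means ranks high.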

How the data were processed

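Kidney RNA of 9 rats was measured on 9 arrays. The authors deposited scanner output from Agilent Feature Extraction 10.5.1.1 (submitters' processing notes). Its intensity values had been, per the file headers, background-subtracted, detrended and floored, with no normalization between arrays. Deposited marks give outlier spots and spots well above background. The authors also deposited a table of 19407 probes, read as log2 from its match to the scanner signals (r of 0.970 to 1.00). Its normalization and centring are unknown (column medians 9.63 to 9.64), and it served as an alternative.

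From the 42136 non-control spots, log2 signal minus the array's log2 75th percentile was taken, outlier spots were treated as missing, and repeated spots of 1 probe were averaged. No spot was saturated (0). A probe was tested if well above background on at least 3 arrays, by at least 0.5 of its spots, with a usable spot in each strain. Strains were compared with limma 3.58.1 in R 4.3.3, strain as the only term, all 9 arrays in 1 fit, Benjamini-Hochberg over 16592 probes at 0.05. The fit was tested on simulated data with 1 spread per probe on all arrays. That simulation held no array that stood apart as SHR replicate 3 did. The number of arrays limits the precision. Probe sequences were not used here, so whether strain variants lie under a probe was not tested.

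Always named were the members, Agtr1b, Agtr2, Mme, Atp6ap2, Lnpep and Thop1, and every wider-list gene past the threshold (at most 8 per list). Some genes of the lists are not reported here and are left out of the list counts. Likeness took the 3 highest r. The members and lists were chosen with earlier results of these data known. Replicate numbers did not pair the arrays: deviations of same-numbered arrays correlated at -0.16 to 0.07. Symbols and promoters come from RefSeq tables (GRCr8).
Alternatives were normexp background correction, quantile normalization, the deposited log2 values, other filters on dim or marked spots, the percentile over unmarked spots, scan time or replicate number as a block, single scans, 2 strains at a time, array weights and each array left out in turn.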

Additional observations from a re-analysis of the deposited data

How the results depend on the processing

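The counts of probes and of wider-list genes past the threshold moved with the processing by over 1.5 times. For Dahl S against Dahl R, 233 probes and 2 list genes passed. The counts were 43 and 1 under normexp, 40 and 1 with the percentile over unmarked spots, 93 and 0 without the filter on dim probes, 32 and 0 within scan 1 (1 Dahl R array, taken to vary like the Dahl S arrays), 746 and 5 with only the 2 strains, and 2313 and 12 with array weights; scan as a block gave 1 list gene. For SHR against Dahl R (2165 and 14) they were 416 and 5, 503 and 3, 1188 and 6 under the first 3 of these, 1138 and 7 with 2 strains and 5340 and 27 with weights. For Dahl S against SHR (2605 and 17) they were 550 and 4, 626 and 3, 1491 and 11, then 866 and 3 with scan as a block, 1076 and 8 with 2 strains and 6127 and 31 with weights. With the replicate number as a block the counts were 77 and 0 for Dahl S against Dahl R, and 1395 and 7 for SHR against Dahl R. That block ended 4 member calls, Prcp for Dahl S against Dahl R (adjusted p = 0.0554), Mas1 and Nln for SHR against Dahl R (0.0658 and 0.0965) and Nln for Dahl S against SHR (0.0767). It also ended 8 calls of named list genes (Akr1b7, Ctsl, Dpp4, Arrb2, Cma1, Cpd, Cyba and Kng1, 0.0545 to 0.132), but the numbers do not pair the arrays. Leaving out 1 array gave 74 to 761 probes and 0 to 4 list genes for Dahl S against Dahl R, 960 to 3772 and 6 to 21 for SHR against Dahl R, and 1280 to 4345 and 11 to 22 for Dahl S against SHR. The share of calls that were higher was 65.1% under normexp for Dahl S against Dahl R (50.2% as reported), 41.1% for SHR against Dahl R (57.9%) and 70.4% for Dahl S against SHR (45.1%), and 61.3% there with scan as a block. The percentile over unmarked spots moved the median of all probes to 0.42 for SHR against Dahl R (0.11 as reported) and -0.42 for Dahl S against SHR (-0.09). The cause of these shifts was not tested. No result named here turned its direction while past the threshold. No member had a second probe, so that alternative was not run, and no scan held both Dahl S and SHR.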

Other observations

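The 3 tested genes on either side of Prcp and of Agt in the GRCr8 gene order were read from the same fit, a choice made after the member values were seen. Of all probes, 13.0% passed for SHR against Dahl R and 15.7% for Dahl S against SHR. Around Prcp, Ankrd42, Rab30, Ddias, Alg8 and Ndufc2 did not pass in any comparison by limma, with SHR against Dahl R between -0.31 and 0.31. Thrsp, the third gene on one side, was higher in SHR than in Dahl R (1.40, limma adjusted p = 0.0345) and lower in Dahl S than in SHR (-1.63, adjusted p = 0.0176). Around Agt, 0 of 6 neighbours (Taf5l1, Urb2, Galnt2, C19h1orf198, Arv1 and C19h1orf131) passed by limma, where Galnt2 came nearest (0.41 for SHR against Dahl R, adjusted p = 0.0522).

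On Dahl S replicate 1, the 113 tested probes far below both other Dahl S arrays had a median log2 level of 1.66 on those arrays. They made up 1.01% of the 11152 tested probes at least as bright there, and Enpep was the only gene of the lists among them.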
